A study of Mus musculus with 12 samples.

Results

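The genes described here encode the machinery that copies DNA in S phase, together with the cyclins, transcription factors and checkpoint kinase that accompany entry into that phase. They form a list of 44 genes given by name, drawn up with earlier results of these data known, of which 42 had a probe set with a gene symbol in the data, out of 15204 genes in all. No probe set was matched to the remaining 2, Gins1 and Chaf1a, so they are not analysed here. Of the 42 genes, 11 belong to helicase loading and origin licensing, 5 to origin firing, 7 to polymerases and primase, 8 to clamp loading, strand binding and Okazaki fragment joining, 4 to nucleotide supply, 2 to chromatin copying and 5 to S-phase entry and its checkpoint.

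DNA replication begins in G1, when the origin recognition complex, with Cdc6 and Cdt1, loads the Mcm2 to Mcm7 helicase onto origins. At the start of S phase, the Cdc7-Dbf4 kinase and cyclin E with its kinase activate the loaded helicase, and primase, the polymerases, the clamp loader and the enzymes of deoxynucleotide synthesis carry the copying forward. Transcription of many of these genes is under the control of E2F factors, which the retinoblastoma protein holds back in resting cells. Endothelial cells of the adult brain divide rarely, whereas endothelial cells placed in culture re-enter the cell cycle.

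Transcripts were measured on 12 mouse arrays in 4 groups of 3. The b.End5 group is a mouse endothelioma line, brain endothelial cells immortalised with the polyoma middle T oncogene. The co-cultured group consists of mouse brain microvascular endothelial cells grown for 5 days on transwell filters above glial cultures 3 weeks old, which sat in the lower well without touching them. The single-cultured group is the same kind of culture, 5 days on filters, without glia. The non-cultured group is brain endothelial cells purified as PECAM1+ cells and described as highly pure, with no culture step. All RNA was column-purified with DNase, amplified as cDNA and labelled with biotin. The labels give no strain, age or pooling, and do not say whether the 3 arrays of a group came from separate preparations, so p-values measure the spread between these arrays. They name PECAM1 for the non-cultured cells and for no other group, so culture and this purification cannot be told apart. The study's title asks which transcripts change when these cells are cultured.

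All values below are deposited RMA log2 values, on which a difference of 1 is 2-fold. Called here means at least 2-fold (1 on the log2 scale) with limma's adjusted p, over all 15204 genes, under 0.05. Array medians over all genes lay between 7.21 and 7.40. Arrays have no read depth, and their number limits the precision. The no-target level, taken per array from bacterial control probe sets, lay between 4.01 and 4.46. Of the 42 genes, 39 were above it on all 12 arrays, and Orc1 was the single gene at or under it on all 3 non-cultured arrays. Of 12 endothelial markers, Pecam1 and Cdh5 were bright everywhere, with no array under 11.58. The whole list, some of which was lower in culture, is described further below.

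The promoters of 6 genes that carry an E2F-type word are shown first. They are the genes of helicase loading and licensing and of polymerases and primase whose word ends before the annotated start. The sequences are RefSeq windows of GRCm38.p6, read 5′ to 3′ along the gene's strand and cut to the stretch around the match, before the annotated start. Capitals mark the words searched on both strands, TTTCCCGC, TTTCGCGC, TTTGCCGC and TTTGGCGC, which overlap each other in Mcm5 and in Mcm6.
Cdc6: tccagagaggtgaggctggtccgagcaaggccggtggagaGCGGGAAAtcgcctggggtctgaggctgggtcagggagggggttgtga
Mcm5: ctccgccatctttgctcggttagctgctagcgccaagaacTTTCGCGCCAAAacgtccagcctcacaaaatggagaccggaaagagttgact
Mcm6: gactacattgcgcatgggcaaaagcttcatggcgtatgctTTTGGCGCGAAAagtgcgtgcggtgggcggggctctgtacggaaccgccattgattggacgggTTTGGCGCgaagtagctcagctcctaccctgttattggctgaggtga
Mcm7: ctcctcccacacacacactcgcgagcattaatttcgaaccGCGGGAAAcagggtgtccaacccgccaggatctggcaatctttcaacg
Orc1: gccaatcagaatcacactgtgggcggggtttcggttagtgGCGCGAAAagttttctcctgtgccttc
Pola1: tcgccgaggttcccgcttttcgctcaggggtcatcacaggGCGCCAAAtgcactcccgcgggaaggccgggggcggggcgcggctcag
These stretches lie at chr11:98907973-98908060 (plus strand) for Cdc6, chr8:75109316-75109407 (plus) for Mcm5, chr1:128359706-128359855 (minus) for Mcm6, chr5:138172001-138172088 (minus) for Mcm7, chr4:108579387-108579453 (plus) for Orc1 and chrX:93632246-93632333 (minus) for Pola1. The first base of the first word lies 27 bases before the start in Orc1, the nearest of the 6, and 165 bases before it in Mcm7, the farthest.

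A promoter window from 250 bases before to 50 bases after the start was at hand for 36 of the 42 genes, and 14 of the 36 (38.9%) held at least 1 such word. Among all 12037 measured genes with a window, 475 (3.95%) did. The 14 genes were Cdc6, Cdt1, Mcm3, Mcm5, Mcm6, Mcm7, Orc1, Pola1, Pold1, Pole2, Rfc3, Lig1, Uhrf1 and E2f2, which cover 5 of the 7 roles. CCAAT, the box bound by NF-Y, was found for 19 of the 36 genes (52.8%), against 42.5% of all measured genes. TTTGAA, the cell-cycle homology region of mitotic promoters, was in 6 of 36 (16.7%), against 15.5%. The 16 mitosis genes with a window had another make-up, with an E2F word in 1 (6.25%), CCAAT in 14 (87.5%) and TTTGAA in 11 (68.8%). Words were searched on both strands, and a match is a description of letters, not a binding site.

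**Figure D1:**
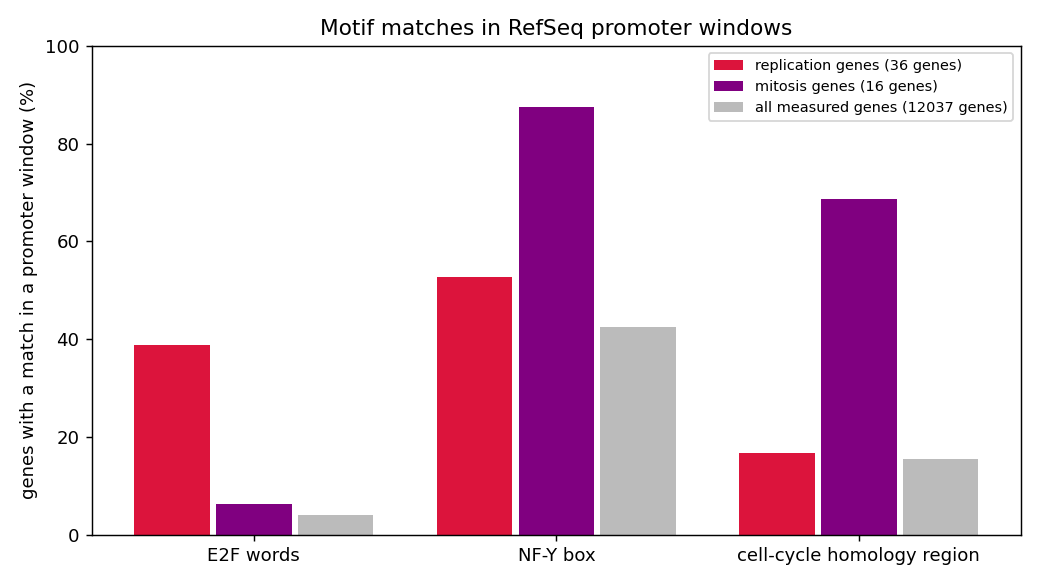
Bars give the share of genes (%) with at least 1 match in a RefSeq promoter window for the E2F words, the NF-Y box (CCAAT) and the cell-cycle homology region (TTTGAA), in 36 replication genes (red), 16 mitosis genes (purple) and 12037 measured genes (grey). The E2F words were in 38.9% of replication genes and the homology region in 68.8% of mitosis genes.

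Most replication transcripts were higher in b.End5 and co-cultured cells than in non-cultured cells, and a smaller number in single-cultured cells. Against non-cultured cells, 36 of the 42 genes were called higher in b.End5, where 9.1% of all genes were, and 0 were called lower, where 9.06% of all genes were. In co-cultured cells 35 of the 42 were called higher, against 9.1% of all genes, and 0 lower, against 6.2%. In single-cultured cells 14 were called higher, against 7.18% of all genes, and 0 lower, against 5.82%. In limma, 0 of the 42 had a lower mean at an unadjusted p under 0.05 in any of these 3 comparisons. The median difference of the 42 genes from non-cultured cells was 1.89 in b.End5, 1.57 in co-cultured and 0.84 in single-cultured cells, while the medians over all genes were 0.078, -0.037 and -0.0025. These are bulk samples, in which more cells in S phase and more transcript per cell cannot be told apart.

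The sources followed one order for most of the genes. The mean was lowest in non-cultured, higher in single-cultured and higher again in co-cultured cells for 40 of 42 genes, the exceptions being Pold1 and Rfc2, whose single-cultured mean was the lowest. The highest mean was in b.End5 for 34 genes and in co-cultured cells for 8 (Mcm6, Orc2, Orc6, Cdc6, Gins2, Rpa2, Rrm2 and Ccne1). The shares of all genes with these orders of means were not computed. For 32 genes, all 3 non-cultured arrays lay below all 9 others. Of all genes, 24% had the 3 single-cultured arrays alone above the non-cultured ones, so the share for all 9 is no larger. The median of the 42 genes was 8.91, 8.94 and 9.00 on the b.End5 arrays, 8.73, 8.84 and 8.75 on the co-cultured, 7.75, 7.98 and 7.92 on the single-cultured and 6.88, 7.0 and 7.06 on the non-cultured arrays. The 4 groups did not overlap in this median, though the b.End5 and co-cultured arrays were close.

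**Figure D2:**
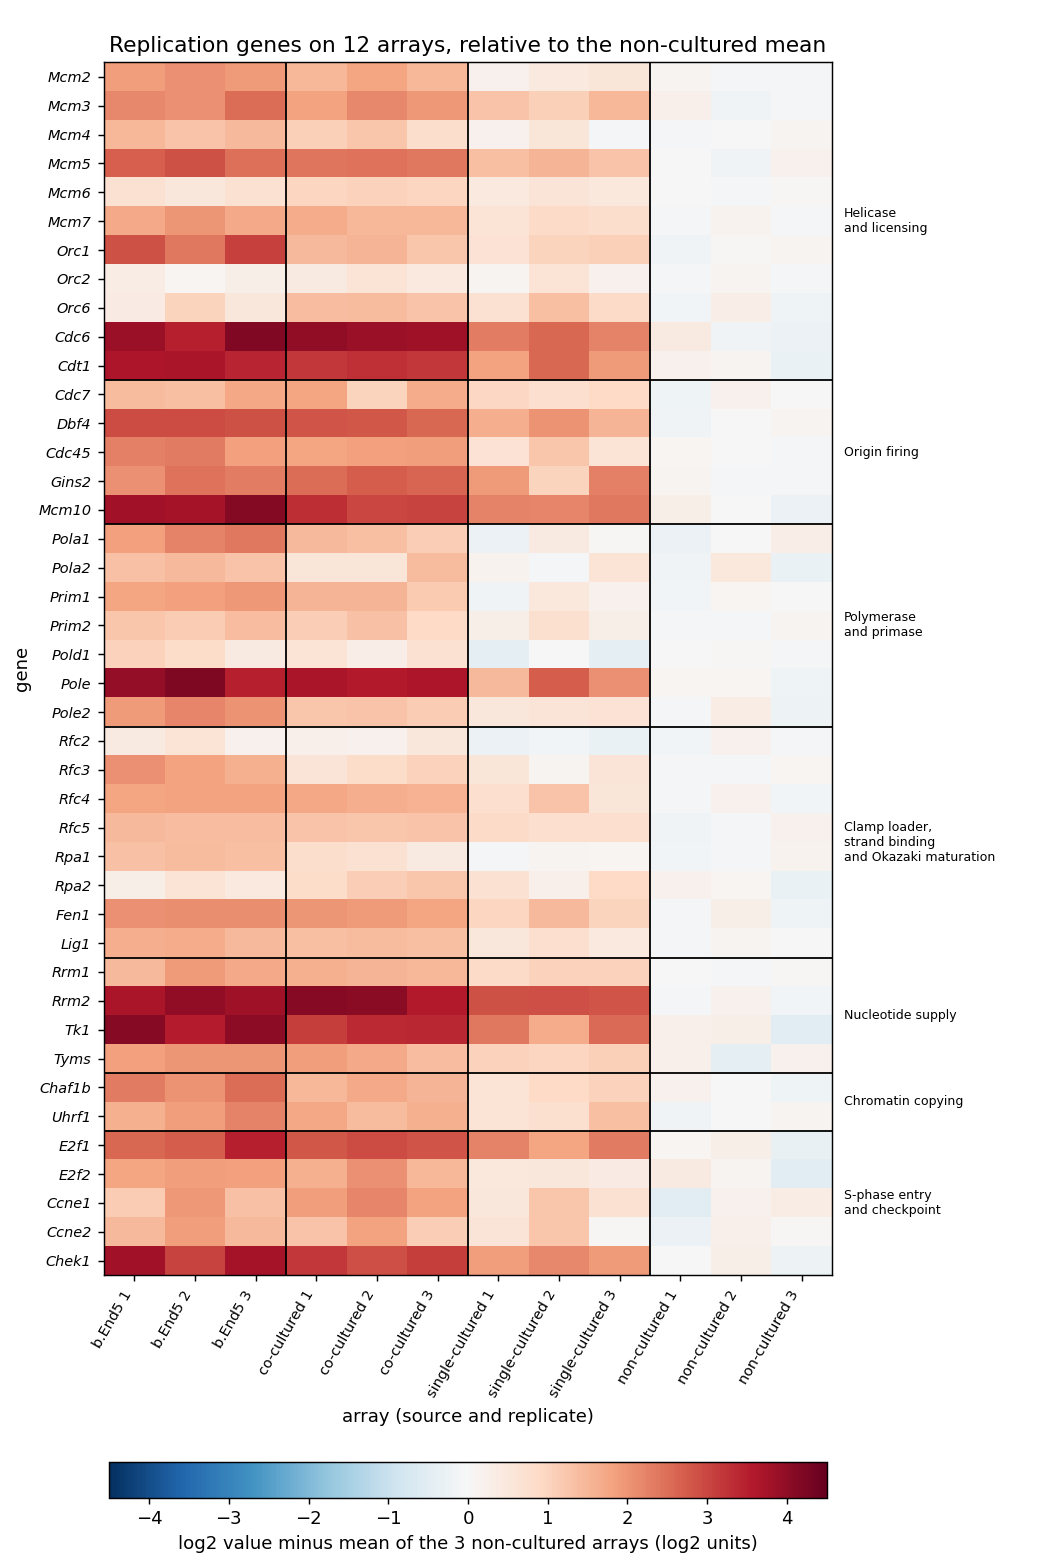
Each row is a gene, grouped by role, and each column an array, with b.End5 at the left and non-cultured at the right. Colour gives the log2 value minus the mean of the 3 non-cultured arrays, red for higher and blue for lower. By group mean, the reds are deepest for Cdc6, Mcm10, Pole, Rrm2 and Tk1 in b.End5. In co-cultured cells they are deepest for Cdc6, Pole, Rrm2 and Tk1.

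Within helicase loading and licensing, Cdc6, which recruits the helicase to origins, had the largest range. Its values were 8.85, 8.46 and 9.13 in b.End5, 8.96, 8.86 and 8.79 in co-cultured, 7.26, 7.56 and 7.19 in single-cultured and 5.36, 4.82 and 4.71 in non-cultured cells. The non-cultured arrays lay lowest, the single-cultured arrays next, and the b.End5 and co-cultured arrays overlapped. Cdc6 rose in b.End5 (log2 difference 3.85, SE 0.20, adjusted p = 3.49e-08), in co-cultured cells (3.91, SE 0.20, adjusted p = 6.25e-08) and in single-cultured cells (2.37, SE 0.20, adjusted p = 4.76e-06, a fold of 5.18) against non-cultured cells.

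Cdt1, the partner of Cdc6 in helicase loading, stood at 9.70, 9.74 and 9.51 in b.End5, 9.23, 9.33 and 9.25 in co-cultured, 7.85, 8.65 and 7.97 in single-cultured and 6.24, 6.18 and 5.76 in non-cultured cells. None of the 4 groups overlapped. It rose by 3.59, 3.21 and 2.10 in b.End5, co-cultured and single-cultured cells against non-cultured cells (SE 0.20 each).

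The 6 helicase subunits did not share a single course. Mcm5 was at 9.62, 9.80 and 9.40 in b.End5, 9.34, 9.37 and 9.29 in co-cultured, 8.31, 8.48 and 8.23 in single-cultured and 6.91, 6.77 and 7.14 in non-cultured cells. Mcm2 was at 9.04, 9.21 and 9.05 in b.End5, 8.66, 8.92 and 8.66 in co-cultured, 7.33, 7.58 and 7.70 in single-cultured and 7.26, 7.10 and 7.10 in non-cultured cells. Mcm6 was at 11.28, 11.10 and 11.27 in b.End5, 11.56, 11.62 and 11.55 in co-cultured, 11.04, 11.16 and 11.05 in single-cultured and 10.60, 10.54 and 10.62 in non-cultured cells. Thus Mcm5 was already clear of the non-cultured arrays in single culture, Mcm2 barely was, and Mcm6 was bright in every source and highest in co-cultured cells. In single-cultured against non-cultured cells, Mcm5 rose by 1.40 (SE 0.14, adjusted p = 1.25e-05) and Mcm3 by 1.28 (SE 0.17, adjusted p = 0.000147). The same difference was 0.75 for Mcm7, 0.49 for Mcm6, 0.38 for Mcm2 and 0.22 for Mcm4, none of them called. In co-cultured against non-cultured cells it ran from 0.99 for Mcm6, just short of a call, to 2.40 for Mcm5, and the other 5 subunits were called. Mcm4 (1.04) lost its call without co-cultured replicate 2 (0.93), without non-cultured replicate 1 (just under 1) and, at 0.89, with arrays centred on their medians.

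The subunits of the origin recognition complex differed from one another. Orc1, the subunit whose level follows the cell cycle, was at 6.88, 6.41 and 7.11 in b.End5, 5.47, 5.56 and 5.27 in co-cultured, 4.67, 5.03 and 5.08 in single-cultured and 3.86, 4.07 and 4.13 in non-cultured cells. The 4 groups did not overlap, and the non-cultured arrays were at or under the no-target level. Orc1 was therefore at least 6.18-fold higher in b.End5 (adjusted p = 2.34e-07) and at least 2.39-fold higher in co-cultured cells (adjusted p = 0.000101) than in non-cultured cells, and at least 1.69-fold higher in single-cultured cells, which was not called (fitted difference 0.91, adjusted p = 0.00284). Orc6 ran at 9.43, 10.05 and 9.54 in b.End5, 10.45, 10.48 and 10.35 in co-cultured, 9.72, 10.41 and 9.92 in single-cultured and 8.94, 9.36 and 8.86 in non-cultured cells. For Orc6 the b.End5 arrays overlapped the single-cultured ones and lay below the co-cultured ones. Orc6 rose in co-cultured cells against non-cultured cells (1.38, SE 0.21, adjusted p = 0.000355), and its difference there was 0.63 in b.End5 and 0.97 in single-cultured cells, neither called. Orc2, the subunit with the smallest differences, was called in 0 of the 6 comparisons, with differences between -0.26 and 0.49 (1 comparison at an unadjusted p under 0.05 in limma).

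Origin firing held some of the largest rises in single culture. Mcm10, which helps to activate the loaded helicase, was at 8.50, 8.46 and 8.86 in b.End5, 8.05, 7.72 and 7.75 in co-cultured, 6.94, 6.91 and 7.09 in single-cultured and 4.97, 4.72 and 4.47 in non-cultured cells. Dbf4, the activating subunit of the Cdc7 kinase, was at 9.82, 9.83 and 9.74 in b.End5, 9.72, 9.68 and 9.47 in co-cultured, 8.52, 8.91 and 8.42 in single-cultured and 6.72, 6.91 and 7.0 in non-cultured cells. For both genes the 4 groups were apart on every array. Against non-cultured cells, Mcm10 rose by 3.88 in b.End5 (SE 0.16, adjusted p = 4.6e-09), 3.12 in co-cultured and 2.26 in single-cultured cells, and Dbf4 by 2.92, 2.75 and 1.74 (SE 0.14).

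The kinase Cdc7 itself had smaller differences than its activator. Cdc7 was at 8.07, 7.99 and 8.38 in b.End5, 8.41, 7.64 and 8.30 in co-cultured, 7.55, 7.37 and 7.54 in single-cultured and 6.44, 6.82 and 6.63 in non-cultured cells. It rose in b.End5 (1.52) and co-cultured cells (1.49) against non-cultured cells (SE 0.20), and its difference in single-cultured cells was 0.86 (adjusted p = 0.0061), under 2-fold. Cdc45 and Gins2, parts of the active helicase with the Mcm ring, rose in b.End5 (2.15 and 2.26) and co-cultured cells (1.83 and 2.63), and in single-cultured cells Gins2 rose by 1.72 (adjusted p = 0.000317) while the difference of Cdc45 was 0.83. Gins2 was the gene with the widest spread in single culture, at 8.56, 7.65 and 8.90. Replicate 2 lay 1.08 under the mean of the other 2 arrays.

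Among polymerases and primase, a single gene of 7 was called in single-cultured against non-cultured cells, whereas 5 were called in co-cultured and 6 in b.End5 cells. That gene was Pole, the catalytic subunit of polymerase epsilon, which copies the leading strand. Pole was at 8.06, 8.30 and 7.61 in b.End5, 7.80, 7.68 and 7.74 in co-cultured, 5.57, 6.82 and 6.15 in single-cultured and 4.19, 4.21 and 3.94 in non-cultured cells. The non-cultured values were close to the no-target level, so that the differences of 3.88, 3.63 and 2.07 (SE 0.27 each) start from a dim signal. The single-cultured arrays spread widely but overlapped no other group.

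Pola1 and Prim1, the catalytic subunits of polymerase alpha and primase, which together start each new strand, stayed near the non-cultured level in single culture. Pola1 was at 8.24, 8.62 and 8.76 in b.End5, 7.84, 7.75 and 7.48 in co-cultured, 6.13, 6.77 and 6.45 in single-cultured and 6.12, 6.35 and 6.68 in non-cultured cells. Prim1 was at 10.14, 10.20 and 10.30 in b.End5, 9.88, 9.87 and 9.55 in co-cultured, 8.19, 8.83 and 8.55 in single-cultured and 8.23, 8.45 and 8.38 in non-cultured cells. For both, the single-cultured and non-cultured arrays overlapped and the other 2 groups lay above them. Against non-cultured cells, Pola1 rose by 2.16 in b.End5 (SE 0.20, adjusted p = 5.19e-06) and 1.31 in co-cultured cells (adjusted p = 0.000402), and its difference in single-cultured cells was 0.07 (95% interval under 1 log2 on both sides). Prim1 rose by 1.86 and 1.41 (SE 0.16), and its difference in single-cultured cells was 0.17 (adjusted p = 0.512).

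The other subunits varied. Pole2, the second subunit of polymerase epsilon, rose in b.End5 by 2.05 and in co-cultured cells by 1.23 (SE 0.15), with 0.58 in single-cultured cells. Prim2, the regulatory subunit of primase, rose by 1.25 and 1.11, with 0.42 in single-cultured cells, and its co-cultured difference was just under 2-fold with arrays centred on their medians (0.96) or quantile-normalised (0.98). Pola2, the regulatory subunit of polymerase alpha, rose in b.End5 (1.35, SE 0.27) and was not called in co-cultured cells (0.84). Pold1, the catalytic subunit of polymerase delta, was at 9.34, 9.11 and 8.70 in b.End5, 8.91, 8.60 and 8.97 in co-cultured, 7.83, 8.29 and 7.85 in single-cultured and 8.31, 8.34 and 8.21 in non-cultured cells. No difference of Pold1 from non-cultured cells was called, at 0.76, 0.54 and -0.29.

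**Figure D3:**
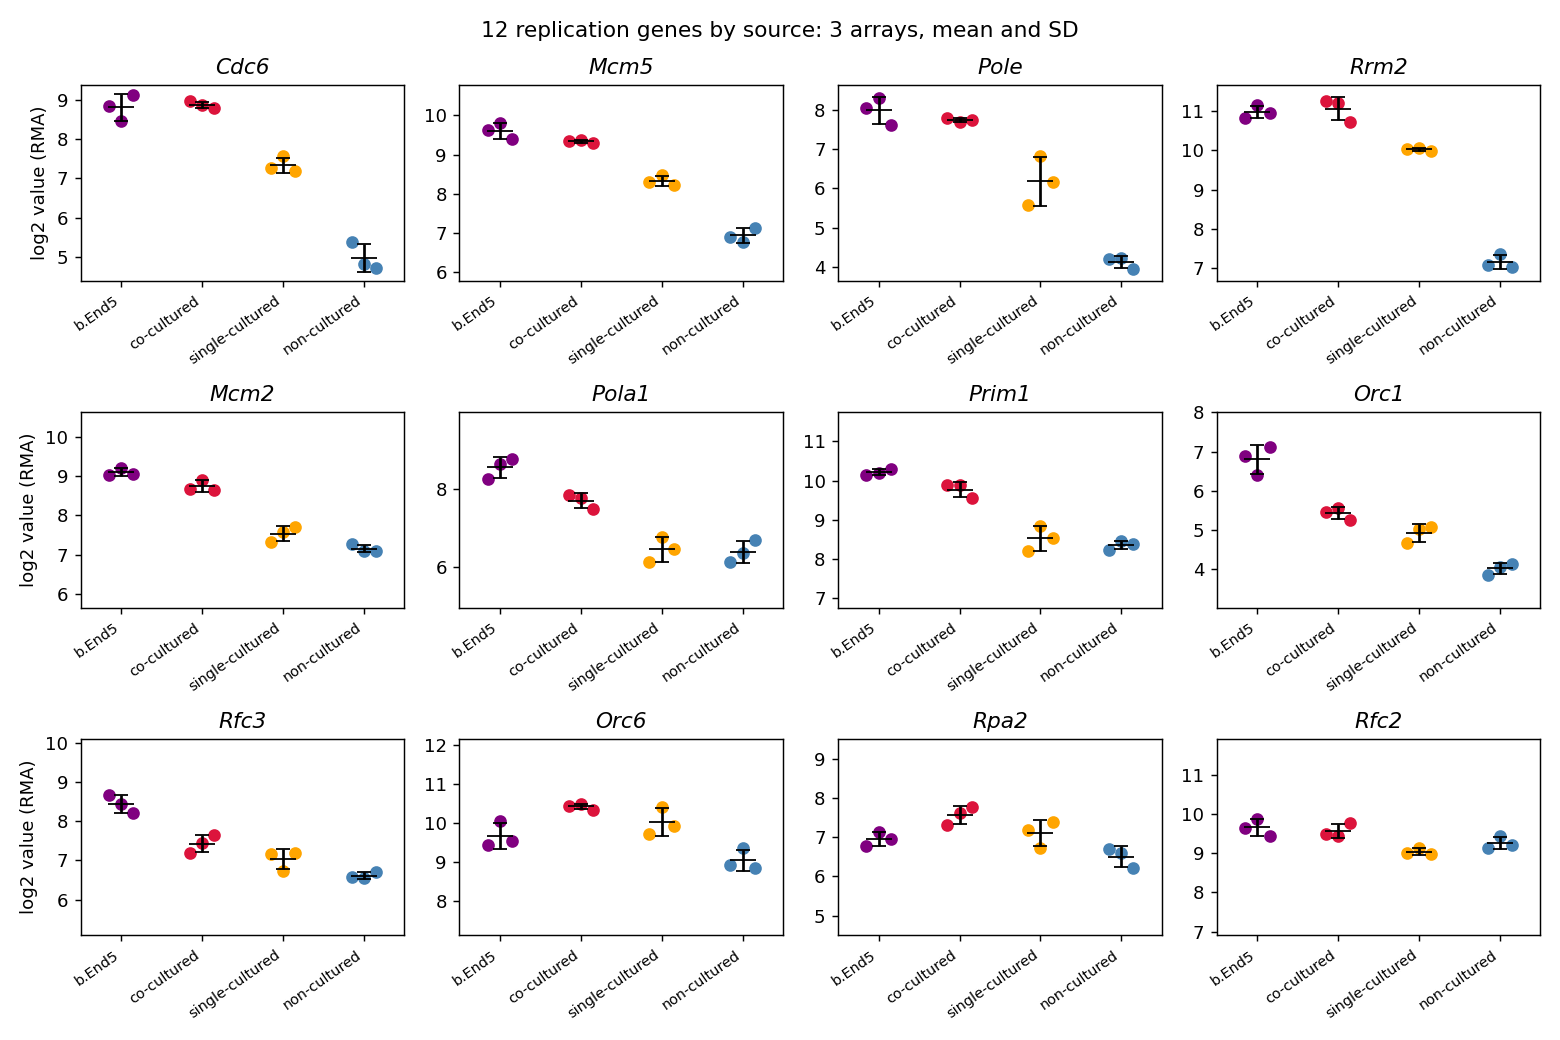
Points are the 3 arrays of each source for 12 replication genes, on the RMA log2 scale, with the mean and SD in black and every panel spanning 5 log2 units. For the top row genes Cdc6, Mcm5, Pole and Rrm2 the co-cultured points lie above the single-cultured and these above the non-cultured ones. For Pola1 and Prim1 the ranges of the single-cultured and non-cultured points overlap.

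Clamp loading, strand binding and Okazaki fragment joining included genes with little difference between sources. Rfc2, a small subunit of the clamp loader, was at 9.65, 9.87 and 9.45 in b.End5, 9.50, 9.45 and 9.78 in co-cultured, 8.99, 9.14 and 8.98 in single-cultured and 9.15, 9.44 and 9.20 in non-cultured cells, and was called in 0 of the 6 comparisons (4 at an unadjusted p under 0.05 in limma). Rfc3, another subunit of the same complex, was at 8.65, 8.43 and 8.21 in b.End5, 7.20, 7.44 and 7.64 in co-cultured, 7.16, 6.73 and 7.20 in single-cultured and 6.57, 6.55 and 6.71 in non-cultured cells. Rfc3 stood apart in b.End5, where it rose by 1.82 against non-cultured cells (SE 0.17, adjusted p = 4.12e-06), while its co-cultured difference of 0.81 was not called. Rfc4 and Rfc5, subunits of the same loader, were called in b.End5 (1.80 and 1.42) and in co-cultured cells (1.65 and 1.28).

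Replication protein A, which coats single-stranded DNA, split by subunit. Rpa1, its large subunit, was at 11.56, 11.68 and 11.62 in b.End5, 11.04, 10.93 and 10.66 in co-cultured, 10.19, 10.36 and 10.35 in single-cultured and 10.13, 10.21 and 10.42 in non-cultured cells. Rpa2, the middle subunit, was at 6.77, 7.13 and 6.96 in b.End5, 7.32, 7.62 and 7.76 in co-cultured, 7.19, 6.73 and 7.40 in single-cultured and 6.71, 6.59 and 6.21 in non-cultured cells. Against non-cultured cells, Rpa1 rose in b.End5 (1.37, SE 0.13, adjusted p = 4.41e-06), with uncalled differences of 0.63 in co-cultured and 0.05 in single-cultured cells. Rpa2 rose in co-cultured cells (1.06, SE 0.20, adjusted p = 0.00141), with uncalled differences of 0.45 in b.End5 and 0.61 in single-cultured cells. The co-cultured call of Rpa2 was lost without co-cultured replicate 3 (0.97), without non-cultured replicate 3 (0.92), with arrays centred on their medians (0.92) and after quantile normalisation (0.88). Fen1, the flap nuclease, and Lig1, the ligase that seals Okazaki fragments, rose in b.End5 (2.08 and 1.59) and co-cultured cells (1.90 and 1.37). In single-cultured cells Fen1 rose by 1.14, with 0.98 and no call without single-cultured replicate 2, and the difference of Lig1 was 0.57.

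Nucleotide supply gave the largest single-culture rise of all 42 genes. Rrm2, the S-phase subunit of ribonucleotide reductase, was at 10.83, 11.15 and 10.95 in b.End5, 11.25, 11.22 and 10.72 in co-cultured, 10.03, 10.06 and 9.99 in single-cultured and 7.08, 7.34 and 7.03 in non-cultured cells. The single-cultured arrays were nearly identical and sat far above the non-cultured ones. Rrm2 rose by 3.83 in b.End5, 3.91 in co-cultured and 2.87 in single-cultured cells against non-cultured cells (SE 0.16 each, adjusted p = 4.5e-09, 7.98e-09 and 1.34e-07). Its partner Rrm1, the large subunit, rose by 1.69 and 1.54 in b.End5 and co-cultured cells, with 0.98 in single-cultured cells (adjusted p = 9.46e-05), just under 2-fold.

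Tk1, the S-phase thymidine kinase, was at 9.19, 8.62 and 9.12 in b.End5, 8.19, 8.43 and 8.47 in co-cultured, 7.46, 6.75 and 7.63 in single-cultured and 5.30, 5.35 and 4.61 in non-cultured cells. The groups were apart on every array. It rose by 3.89, 3.28 and 2.19 against non-cultured cells (SE 0.26 each). Tyms, thymidylate synthase, rose by 1.93, 1.66 and 1.02, and its single-culture call was lost without non-cultured replicate 2 (0.82), without single-cultured replicate 3 (just under 1), with arrays centred on their medians (0.94) and after quantile normalisation (0.92). Rrm2b, the ribonucleotide reductase subunit used outside S phase and not among the 42 genes, went the other way. Rrm2b was at 6.83, 7.13 and 6.74 in b.End5, 6.66, 6.59 and 6.39 in co-cultured, 6.87, 6.74 and 6.83 in single-cultured and 8.02, 7.80 and 7.77 in non-cultured cells. It fell in co-cultured (-1.31) and single-cultured cells (-1.05) against non-cultured cells (SE 0.13), and its b.End5 difference was -0.96, just short of a call.

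Both chromatin-copying genes rose in b.End5 and co-cultured cells against non-cultured cells. Uhrf1, which carries DNA methylation across replication, was at 8.34, 8.62 and 8.95 in b.End5, 8.45, 8.15 and 8.31 in co-cultured, 7.33, 7.44 and 8.07 in single-cultured and 6.57, 6.75 and 6.85 in non-cultured cells. Chaf1b, a subunit of the histone chaperone CAF-1, was at 8.98, 8.64 and 9.12 in b.End5, 8.12, 8.34 and 8.17 in co-cultured, 7.24, 7.53 and 7.67 in single-cultured and 6.81, 6.64 and 6.43 in non-cultured cells. The non-cultured arrays lay below all others for both genes. The differences were 1.91 and 1.58 for Uhrf1 and 2.29 and 1.58 for Chaf1b, and in single-cultured cells 0.89 and 0.85, neither of them called.

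S-phase entry and its checkpoint divided between family members. E2f1, an activating E2F, was at 7.61, 7.74 and 8.52 in b.End5, 7.82, 7.95 and 7.85 in co-cultured, 7.26, 6.80 and 7.35 in single-cultured and 5.11, 5.28 and 4.70 in non-cultured cells. E2f2, another activating E2F, was at 6.76, 6.88 and 6.85 in b.End5, 6.60, 7.04 and 6.49 in co-cultured, 5.45, 5.50 and 5.38 in single-cultured and 5.39, 5.12 and 4.47 in non-cultured cells. E2f1 rose in all 3 cultured sources against non-cultured cells, by 2.93, 2.84 and 2.11 (SE 0.24), while E2f2 rose by 1.84 in b.End5 and 1.72 in co-cultured cells (SE 0.21). The single-culture difference of E2f2 was 0.45 (adjusted p = 0.144), and its single-cultured arrays overlapped the non-cultured ones.

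Chek1, the kinase that guards replication forks, was at 8.01, 7.30 and 7.99 in b.End5, 7.43, 7.16 and 7.35 in co-cultured, 6.12, 6.42 and 6.15 in single-cultured and 4.23, 4.51 and 4.00 in non-cultured cells. It rose by 3.52, 3.07 and 1.98 (SE 0.20), the largest differences of the 5 genes in b.End5 and co-cultured cells. Ccne1, a cyclin E, was at 8.13, 8.93 and 8.31 in b.End5, 8.84, 9.17 and 8.80 in co-cultured, 7.49, 8.21 and 7.67 in single-cultured and 6.48, 7.16 and 7.29 in non-cultured cells, with a rise of 1.48 and 1.96 in b.End5 and co-cultured cells (SE 0.27). Ccne2, the other cyclin E, rose by 1.60 and 1.39 (SE 0.28). Neither cyclin was called in single culture, at 0.81 and 0.62, and both had a wide spread between arrays.

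Glia in the lower well went with higher replication transcripts. In co-cultured against single-cultured cells, 12 of the 42 genes were called higher, against 0.901% of all genes, and 0 lower, against 0.289% (0 lower at an unadjusted p under 0.05 in limma). The median difference of the 42 was 0.78, against -0.014 over all genes, and all 42 means were higher with glia. With no minimum difference, 27 had an adjusted p under 0.05 and a higher mean (1.82% of all genes), and 37 had 3 co-cultured arrays above all 3 single-cultured ones (9.4% of all genes). The 12 covered every role but clamp loading and chromatin copying. They were Pole (1.56, SE 0.27, adjusted p = 0.0105), Cdc6 (1.53, SE 0.20, adjusted p = 0.00305), E2f2 (1.27), Prim1 (1.24), Pola1 (1.24), Mcm2 (1.21, SE 0.13, adjusted p = 0.00127), Ccne1 (1.15, adjusted p = 0.0482), Cdt1 (1.11), Chek1 (1.08), Rrm2 (1.04), Dbf4 (1.01) and Cdc45 (1.00). Tk1 (1.08, adjusted p = 0.0549) and Mcm5 (just under 1, adjusted p = 0.00325) were just short of a call.

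The count in that comparison depended on single arrays. It was 7 without single-cultured replicate 1 and 7 without co-cultured replicate 2, and 8 with arrays centred on their medians. Pole, Cdc6, E2f2, Prim1, Pola1 and Mcm2 were called whichever array was left out. Ccne1, Cdt1, Chek1, Rrm2, Dbf4 and Cdc45 each lost the call when at least 1 array was, with log2 differences between 0.89 and 1.22 at those points. For Pola1, Prim1, Mcm2 and E2f2 the difference of co-cultured from single-cultured cells (1.21 to 1.27) was larger than that of single-cultured from non-cultured cells (0.07 to 0.45), the order seen in 17 of the 42 genes. For the other 25, Rrm2 (1.04 and 2.87) and Mcm10 (0.86 and 2.26) among them, the step into single culture was the larger. The difference between the steps was not tested.

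In b.End5 against co-cultured cells, 2 of the 42 genes were called higher, a share near the 5.1% of all genes, and 0 lower, against 7.96% (12 higher and 3 lower at an unadjusted p under 0.05 in limma). The called genes were Orc1 (1.37, SE 0.18, adjusted p = 0.000162) and Rfc3 (1.01, SE 0.17, adjusted p = 0.000815), whose per-array values are given above. Rfc3 fell short of a call without b.End5 replicate 1 (0.90) or without co-cultured replicate 1 (0.89), while Orc1 was called whichever array was left out. With no minimum difference, 7 genes had an adjusted p under 0.05 and a higher mean in b.End5, again a share near that of all genes (16.3%), the other 5 being Pola1 (0.85), Pole2 (0.82), Mcm10 (0.77), Rpa1 (0.74) and Chaf1b (0.71). On the same rule 3 had a lower mean (14.6% of all genes), Orc6 (-0.75), Rpa2 (-0.62) and Mcm6 (-0.36). All 3 b.End5 arrays lay above all co-cultured ones for 19 genes (26% of all genes) and below them for 5 (18.4%).

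**Figure D4:**
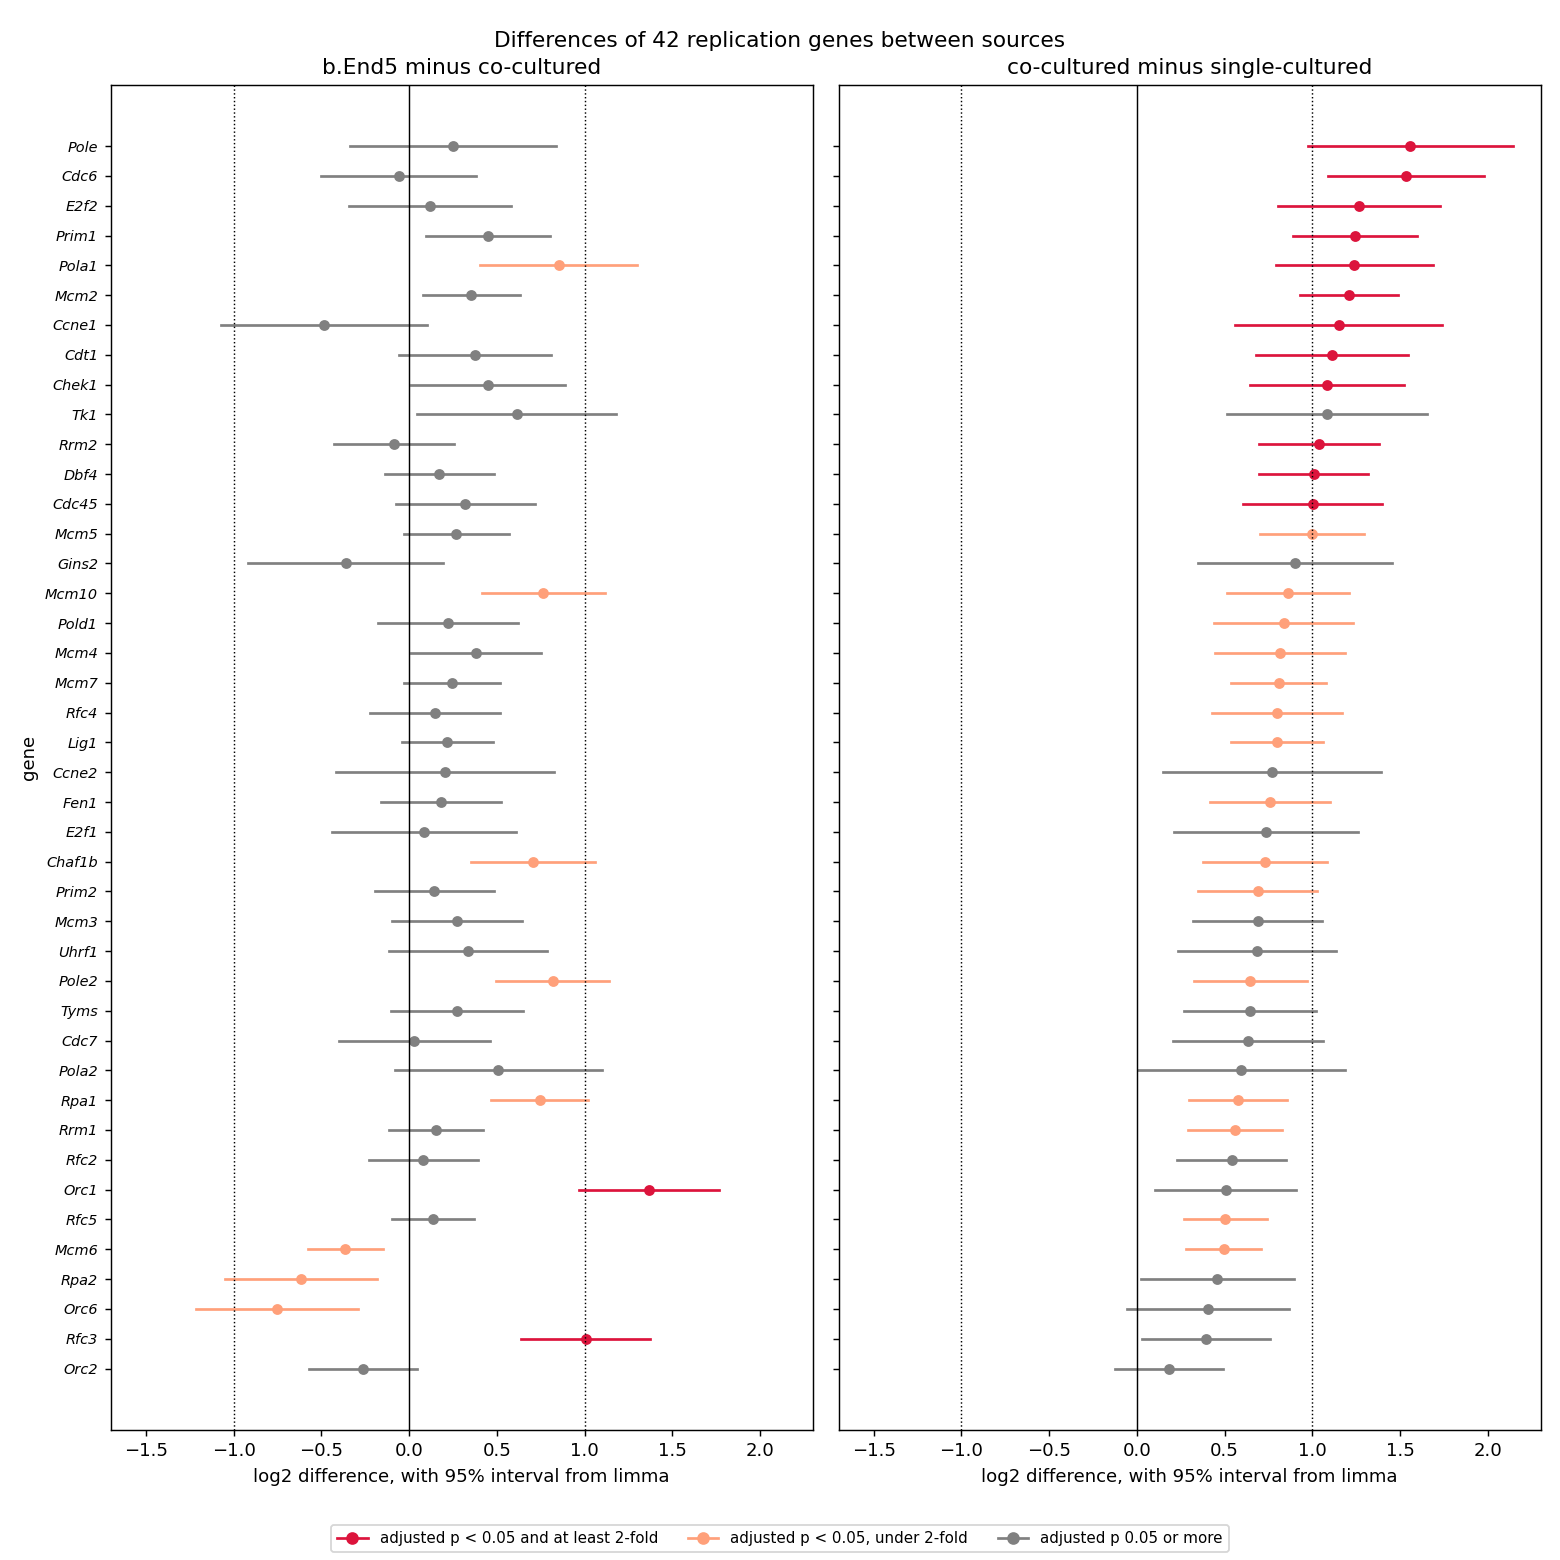
Points are log2 differences with 95% intervals from limma for 42 replication genes, b.End5 minus co-cultured at the left and co-cultured minus single-cultured at the right, sorted by the right panel. Red marks genes called at 2-fold, pale red an adjusted p under 0.05 at less than 2-fold, and grey the rest. All 42 points of the right panel are above 0, while at the left 2 genes, Orc1 and Rfc3, are red.

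Against single-cultured cells, b.End5 had 24 of the 42 genes called higher, against 6.25% of all genes, and 0 lower, against 7.82% (0 lower at an unadjusted p under 0.05 in limma). The median difference was 1.06, against 0.082 over all genes. The differences ran from -0.34 for Orc6 to 2.09 for Pola1 (SE 0.20, adjusted p = 1.26e-05), followed by Orc1 (1.87), Pole (1.81) and Tk1 (1.70). Polymerases and primase had 6 of 7 genes called, clamp loading and strand joining 3 of 8, and nucleotide supply 1 of 4, Tk1. Calls of Lig1 (1.02), Mcm7 (1.05), Pold1 (1.06), Pola2 (1.10) and Uhrf1 (1.02) lay near the threshold and were each lost when at least 1 array was left out, with log2 differences between 0.86 and 0.99. In b.End5 against single-cultured cells, 36 genes did not overlap and were higher (23.2% of all genes). Against non-cultured cells the same count was 41 in b.End5 (28.1% of all genes), 42 in co-cultured (25.7%) and 33 in single-cultured cells (24%). In the other direction, 0, 0 and 1 gene (Rfc2) lay lower without overlap, against 21.1%, 25.4% and 21.2% of all genes. In single-cultured against non-cultured cells, 30 genes had a higher mean at an adjusted p under 0.05 with no minimum difference (15.5% of all genes).

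Markers of other cell types differed between the sources as well. The linear values of 13 microglia and macrophage markers summed to 297 to 356 in b.End5, 10895 to 23358 in co-cultured, 11326 to 21610 in single-cultured and 1707 to 2525 in non-cultured cells. Of them, 9 were called higher in co-cultured and 8 in single-cultured cells against non-cultured cells, where 9.1% and 7.18% of all genes were. Lyz2 was the brightest marker in both cultures, at 12.68 to 13.66, and so weighs most in their sums. Cx3cr1, a microglial gene, stayed at 4.67 to 5.30 over all 12 arrays. In co-cultured against single-cultured cells 0 of the 13 markers were called higher (1 at an unadjusted p under 0.05 in limma), against 0.901% of all genes. The 12 pericyte and smooth muscle markers summed to 550 to 1136 in b.End5, 12798 to 19553 in co-cultured, 9339 to 13594 in single-cultured and 5384 to 7813 in non-cultured cells. They did not move together. Against non-cultured cells, 4 were called higher and 3 lower in co-cultured cells (9.1% and 6.2% of all genes). In single-cultured cells 2 were called higher and 4 lower (7.18% and 5.82%). In both, Tagln and Acta2 were called higher and Rgs5 and Vtn lower. Of the 12 markers, 1 (Rgs5, 1.53) was called higher in co-cultured against single-cultured cells, with 5 higher and 0 lower at an unadjusted p under 0.05 and a median difference of 0.72 over the 12. The 8 fibroblast markers summed to 195 to 382 in b.End5, 2882 to 14492 in co-cultured, 954 to 1598 in single-cultured and 430 to 739 in non-cultured cells, and 3 of 8, Col1a1 (2.50), Col1a2 and Col3a1, were called higher in co-cultured against single-cultured cells. Thus 3 collagen genes, Rgs5 and 12 of the replication genes were higher together in that comparison, while the other 5 fibroblast markers did not pass at an unadjusted p under 0.05. The part of these marker lists in the replication differences of co-cultured and single-cultured cells was not tested. Itgam, Ptprc, P2ry12, Rgs5 and Notch3 were at or under the no-target level on all b.End5 arrays, and Lum and Dpt on all 12 arrays. The sums of these 3 marker lists were lowest in b.End5. The 12 endothelial markers summed to 71391 to 72459 in b.End5, 59699 to 71214 in co-cultured, 61380 to 77450 in single-cultured and 86908 to 93914 in non-cultured cells. Against non-cultured cells, 1 was called lower in b.End5 (Flt1), 2 in co-cultured (Flt1, Tek) and 3 in single-cultured cells (Flt1, Ly6a, Tek). Of all genes, 9.06%, 6.2% and 5.82% were. In each, 0 were called higher (9.1%, 9.1% and 7.18% of all genes). At an unadjusted p under 0.05 in limma, 5, 7 and 5 were lower and 1, 0 and 2 higher.

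The array that stood apart over all genes was not the one that did so over these. On b.End5 replicate 2, 7.06% of all genes lay more than 1 log2 unit from the mean of the other 2 b.End5 arrays, against at most 2.87% on any other array. Of the 42 genes, 0 did so and 6 lay more than 0.5 away, the farthest being Ccne1 (0.71 higher) and Chek1 (-0.70). Without that array, 36 genes were called higher in b.End5 against non-cultured cells, the same number as with it. Over the 42 genes single-cultured replicate 2 lay farthest from its group, with 12 genes more than 0.5 from the mean of the other 2 arrays and 1 more than 1 away, Gins2 (-1.08). Without that array, 13 genes were called higher in single-cultured against non-cultured cells (14 with it) and 14 in co-cultured against single-cultured cells (12 with it).

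A wider list of 58 measured genes of replication and S phase, also drawn up with earlier results of these data known, was measured beside the 42. Against non-cultured cells, 22 of the 58 were called higher in b.End5 and 0 lower (3 lower at an unadjusted p under 0.05 in limma), 23 higher and 1 lower in co-cultured, and 11 higher and 1 lower in single-cultured cells. Of all genes, 9.1%, 9.1% and 7.18% were called higher and 9.06%, 6.2% and 5.82% lower, in the same order. Ccna2, the S-phase cyclin A, was at 10.70, 10.74 and 11.01 in b.End5, 11.10, 11.12 and 11.00 in co-cultured, 9.71, 10.00 and 10.17 in single-cultured and 6.60, 6.43 and 6.53 in non-cultured cells, a rise of 4.30, 4.56 and 3.44. Asf1b, a histone chaperone, rose by 3.32, 3.63 and 2.26, and E2f8, an atypical repressor E2F, by 3.30, 3.36 and 2.24. In co-cultured against single-cultured cells 8 of 58 were called higher (0.901% of all genes), led by Asf1b (1.37), Hells (1.35), Exo1 (1.33) and Dscc1 (1.31). In b.End5 against single-cultured cells 15 were (6.25% of all genes), led by Dtl (1.83), Dscc1 (1.74) and Hells (1.69). In b.End5 against co-cultured cells 1 was called, Mcm9 (1.01), a helicase related to the Mcm ring. There, 5.1% of all genes were called higher and 7.96% lower.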

How the data were processed

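The deposited table held log2 values, made by the authors with RMA per the submitters' processing notes. The sources used here do not give its version or probe-set definition. RMA corrects background, normalises arrays by quantiles and gives 1 value per probe set, so a change shared by most genes would be removed. The 12 arrays were grouped by their labels, 3 per group, and 0 columns were left out.

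Of 21625 probe sets, 64 were controls and 16537 of the 21561 RefSeq accessions had a symbol in the RefSeq table of GRCm38.p6. The brightest probe set stood for each of 987 genes with several, which left 15204 genes, with no filter on low values. For the no-target level, each array's 95th percentile over its 27 bacterial controls was taken. A fold against a group at or under it is a bound.

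Differences came from lmFit and eBayes of limma 3.58.1 (R 4.3.3), in 1 model of 4 group means with 8 residual degrees of freedom and Benjamini-Hochberg adjustment over all genes of each of 6 comparisons. The comparisons share arrays. Called genes had a difference of at least 1, up or down, and an adjusted p under 0.05. In a test on simulated data with 200 of 15204 genes changed, 89% to 94% of those changed by 1.5 log2 were called over the 6 comparisons. The simulated noise was independent between arrays, with no outlying array. Changes near 1 log2 were not simulated, so the test does not give the recovery there. SE is limma's moderated standard error and SD the spread of 3 arrays. Any of the 42 genes could be named. Of the other lists, the top 4 called rises and top 3 called falls per comparison (wider replication list), or up to 2 per direction (quiescence, mitosis), and fixed cell-type markers could be. A gene of the wider list is counted but not reported by name here. The members and lists were chosen with earlier results of these data known. Alternatives covered scaling between arrays, probe sets, dim genes, the arrays fitted, array weights, the minimum difference, eBayes settings, the replicate number and each array left out. Same-numbered co-cultured and single-cultured arrays correlated, after group means were removed, at 0.227, 0.135 and 0.232. Arrays of these 2 groups with differing numbers lay between -0.285 and 0.077. Single-cultured replicate 3 and non-cultured replicate 1 reached 0.287, so such values do not establish a pairing, and the labels state none. The replicate number entered as a block in an alternative fit, not in the main model. Promoter windows came from RefSeq (GRCm38.p6). Python 3.11.15, pandas 2.3.3 and matplotlib 3.10.9 made tables and figures.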

Additional observations from a re-analysis of the deposited data

How the results depend on the processing

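Of 252 differences of the 42 genes, none that was called changed sign under 21 alternatives (9 other settings and 12 arrays left out in turn). Calls held under every setting that tested them for 36 of 36 genes in b.End5, 32 of 35 in co-cultured and 12 of 14 in single-cultured against non-cultured cells, and for 6 of 12 in co-cultured against single-cultured, 19 of 24 in b.End5 against single-cultured and 1 of 2 in b.End5 against co-cultured cells. With the replicate number as a block, the counts stayed at 36, 35, 14, 12, 24 and 2 in the same order, and no gene's call changed.

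With no minimum difference, 30 genes were higher in single-cultured against non-cultured cells, 27 in co-cultured against single-cultured cells, and 7 higher with 3 lower in b.End5 against co-cultured cells, by construction. Centring each array on its median gave a median of all genes of -0.19 in co-cultured against non-cultured cells (-0.037 as deposited), and the median of the 42 genes there was then 1.42 (1.46 after quantile normalisation). In single-cultured against non-cultured cells that median was 0.75 after quantile normalisation and 0.76 with array weights. Leaving out the dimmest 30% of genes removed Orc1, so 1 gene was called in b.End5 against co-cultured cells. With single arrays left out, the genes called higher numbered 36 to 36 in b.End5, 34 to 36 in co-cultured and 13 to 18 in single-cultured against non-cultured cells, 7 to 14 in co-cultured against single-cultured, 20 to 25 in b.End5 against single-cultured and 1 to 2 in b.End5 against co-cultured cells. The median difference of b.End5 from single-cultured cells was then 0.98 to 1.18, the highest without single-cultured replicate 2.

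Sign changes touched 8 genes with uncalled differences near 0. In single-cultured against non-cultured cells, Pola1 was -0.0096 with median centring, -0.10 after quantile normalisation, -0.048 with array weights and -0.092 to 0.23 with single arrays left out, and Rpa1 -0.028 with median centring and -0.011 to 0.13. In b.End5 against single-cultured cells, Orc2 was 0.082 with array weights and -0.18 to 0.073. In b.End5 against co-cultured cells, Cdc6 was 0.0090 with median centring, 0.037 with array weights and -0.22 to 0.12, Rrm2 -0.25 to 0.0094, Cdc7 -0.21 to 0.18, Rfc2 -0.024 to 0.18 and E2f1 -0.20 to 0.26. The cause was not tested. Values near the no-target level limit the differences of Orc1, Pole and Chek1 from non-cultured cells.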

Other observations

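Genes that act after or against S phase were measured on the same arrays. Of 19 mitosis genes, 19 were called higher in b.End5, 19 in co-cultured and 18 in single-cultured against non-cultured cells, 13 in co-cultured against single-cultured, 12 in b.End5 against single-cultured and 0 in either direction in b.End5 against co-cultured cells (2 higher and 2 lower at an unadjusted p under 0.05 in limma). Of all genes, 9.1%, 9.1%, 7.18%, 0.901%, 6.25% and 5.1% were called higher in the same order, and 7.96% lower in the last comparison. Birc5, survivin, was at 10.27, 9.91 and 10.20 in b.End5, 10.13, 10.17 and 9.89 in co-cultured, 8.83, 8.62 and 8.98 in single-cultured and 4.84, 4.88 and 4.91 in non-cultured cells, with no overlap between non-cultured arrays and the rest. Bub1, a spindle checkpoint kinase, was at or under the no-target level in non-cultured cells and at least 26.7-fold higher in b.End5, 30.1-fold in co-cultured and 10.4-fold in single-cultured cells.

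Of 17 cell-cycle inhibitors and quiescence genes, 3 were called higher and 4 lower in b.End5, 1 and 4 in co-cultured, and 1 and 5 in single-cultured against non-cultured cells. The shares of all genes called higher there were 9.1%, 9.1% and 7.18%, and lower 9.06%, 6.2% and 5.82%. In co-cultured against single-cultured cells 0 were called by limma in either direction (2 higher and 3 lower at an unadjusted p under 0.05), where 0.901% of all genes were called higher and 0.289% lower. Cdkn1c, the inhibitor p57, was at 8.75, 5.64 and 8.20 in b.End5, 7.35, 7.29 and 6.99 in co-cultured, 7.57, 6.95 and 7.40 in single-cultured and 11.69, 11.58 and 11.34 in non-cultured cells. It fell in all 3 cultured sources against non-cultured cells, with differences of -4.00, -4.33 and -4.23 (SE 0.59), and b.End5 replicate 2 was the lowest array. Btg2, an antiproliferative gene, fell too, at -2.88, -2.63 and -2.52. Ccng1, cyclin G1, rose against this course, at 1.02, 1.05 and 1.15 (SE 0.13). Cdkn2c, an inhibitor of the cyclin D kinases, rose in b.End5 by 1.20, and its differences in co-cultured and single-cultured cells were -0.02 and -0.68, neither called.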
